A study of Mus musculus with 2 samples.

Results

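The 55 genes described here encode ubiquitin-specific (Usp) and ovarian tumour family (Otud and Otub) deubiquitinases of the mouse heart, measured by single-cell RNA sequencing. They were chosen by symbol from the 55357 genes of the count tables. A gene matched if its symbol was Usp followed by a number and an optional letter, or began with Otud or Otub. Usp9y and symbols containing -ps were left out. A matching gene was taken if it had at least 20 UMIs (unique molecular identifiers, which mark single captured RNA molecules) over both libraries. Of 59 matching symbols, 4 fell under this minimum, and 46 Usp and 9 OTU genes stayed. The lowest genes inside the minimum were Usp29 with 33 UMIs and Usp27x with 40. Just outside lay Usp26 with 9 UMIs and Usp44 with 2, and Otud6a and Usp51 had 0.

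The libraries compared C57BL/6 mouse hearts under pressure overload with control hearts. In the TAC library the hearts came from male mice whose aortic arch was ligated (transverse aortic constriction) at an age of 8 weeks. The constriction lasted 6 weeks. The Sham library came from C57BL/6 control hearts, which the sample labels call sham-operated and the design text calls uninjured. Cells of 3 to 5 hearts were pooled into each library, so 1 library per group was available, the mice within a library could not be told apart, and no test between the groups was possible. Intervals are exact 95% intervals for counting error (Poisson for a level, conditional binomial for a ratio of levels), and they do not cover differences between mice, dissociations or libraries. PCR copies were collapsed by the UMIs.

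The Sham library held 28146691 UMIs in 9935 barcodes and the TAC library 29108986 UMIs in 9932, with medians of 1964 and 2143 UMIs per barcode, and 32 barcode sequences occurred in both. After filtering and the removal of called doublets, 9475 Sham and 9452 TAC cells were kept. Clusters named from markers gave 5 main cell types with 1043 to 2397 cells per library: cardiomyocytes, fibroblasts, endothelial cells, macrophages and pericytes. Lymphatic endothelial, smooth muscle, T, B, epicardial and Schwann cells were present in smaller numbers, 15 to 110 per library, and 221 Sham cells stayed unnamed. In each main type at least 6 of the markers that defined it were raised in each of its clusters. Most Sham cardiomyocytes lay in a cluster led by Pdzrn4 and Kcnd2 (1471 of 2355 cells), and most TAC cardiomyocytes in one led by Ankrd1 (1628 of 2397 cells). A level is given as UMIs of the gene per 1000000 UMIs of the cell type in that library. Orders of levels are among the 5 main types unless a smaller type is named.

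Deubiquitinases are proteases that remove ubiquitin from proteins or trim ubiquitin chains. They thereby oppose the ubiquitin ligases that mark proteins for the proteasome, for endosomal sorting or for signalling. The Usp enzymes are the largest family, and the OTU enzymes are known for preferring particular chain linkages. Heart muscle relies on the ubiquitin-proteasome system to turn over sarcomere proteins, and innate immune signalling uses chains that do not lead to the proteasome. The study that reported these libraries used isoproterenol infusion in its mouse models and described single-cell data of Sham hearts. It concerned Otud1, Usp15 and CARD9, a signalling scaffold of myeloid cells, so these members come first.

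Promoter windows from RefSeq (assembly GRCm38.p6, 250 bases before to 50 bases after a start annotated by RefSeq) were matched by symbol for 42 of the 55 members. The letters CACGTG, a palindrome read the same on both strands and known as an E-box, occurred in 6 of the 45 windows of these members (13.3%) and in 2349 of 32851 windows of all genes (7.15%). The members with the letters were Otud1, Otud3, Usp31, Usp4, Usp32 and Usp16. The match is a description of the window and not a binding site. The windows of the genes examined by the study (Otud1 and Usp15) and of the 2 members most restricted to cardiomyocytes (Usp13 and Usp2) are shown 5′ to 3′, with CACGTG in capitals where it occurred.
Otud1, chr2:19657481-19657780, plus strand: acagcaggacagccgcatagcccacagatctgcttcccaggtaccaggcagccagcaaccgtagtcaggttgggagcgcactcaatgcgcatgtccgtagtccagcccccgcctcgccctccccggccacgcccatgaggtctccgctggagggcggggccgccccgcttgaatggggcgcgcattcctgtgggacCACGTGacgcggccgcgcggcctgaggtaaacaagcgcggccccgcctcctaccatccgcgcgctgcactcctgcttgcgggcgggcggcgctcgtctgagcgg
Usp15, chr10:123196970-123197269, minus strand: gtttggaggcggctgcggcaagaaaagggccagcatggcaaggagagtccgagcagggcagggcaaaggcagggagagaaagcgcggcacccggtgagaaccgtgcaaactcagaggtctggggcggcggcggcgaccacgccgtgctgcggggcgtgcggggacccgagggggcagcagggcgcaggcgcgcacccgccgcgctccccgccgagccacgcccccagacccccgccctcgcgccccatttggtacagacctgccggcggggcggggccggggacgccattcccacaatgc
Usp13, chr3:32817376-32817675, plus strand: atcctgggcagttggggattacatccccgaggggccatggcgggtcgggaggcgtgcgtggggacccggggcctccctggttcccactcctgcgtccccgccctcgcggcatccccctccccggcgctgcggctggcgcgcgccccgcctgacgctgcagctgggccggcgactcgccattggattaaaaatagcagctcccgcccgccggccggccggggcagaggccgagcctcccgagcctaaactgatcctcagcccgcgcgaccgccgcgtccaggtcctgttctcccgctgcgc
Usp2, chr9:44084670-44084969, plus strand: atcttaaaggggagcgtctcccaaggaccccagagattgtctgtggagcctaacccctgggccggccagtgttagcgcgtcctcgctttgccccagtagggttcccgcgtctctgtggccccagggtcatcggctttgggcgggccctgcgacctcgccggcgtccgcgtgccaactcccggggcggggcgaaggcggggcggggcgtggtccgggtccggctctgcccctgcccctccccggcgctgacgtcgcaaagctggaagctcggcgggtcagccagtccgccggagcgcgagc
In the Otud1 window the capitals began 54 bases before the annotated start. The windows of Usp15, Usp13 and Usp2 did not hold these 6 letters. The Usp2 window lies at an internal start, inside the span that GENCODE M21 gives for the gene (chr9:44067021-44095627), and the start of that span was not searched.

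The members together made up nearly the same part of both libraries, 3903 UMIs per 1000000 in Sham and 3890 in TAC. Across the main types their summed level ranged from 3681 per 1000000 (pericytes) to 4286 (macrophages) in Sham, and from 3662 (pericytes) to 4281 (macrophages) in TAC. Raw levels of single members spanned almost 3 orders of magnitude. The highest raw level over all kept Sham cells was that of Usp34, a regulator of Wnt signalling, with 371 UMIs per 1000000. It was followed by Usp9x (204), Usp24 (183), Usp15 (177), Usp47 (163), Usp13 (162), Usp25 (155) and Usp28 (135). At the low end, Otud1 was at 2.85, Usp27x at 0.617 and Usp29 at 0.424 per 1000000.

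Raw levels rank genes of different length together, and whether intron reads were counted is not given, so the order was also taken per length. Divided by the gene's span in GENCODE M21 (GRCm38), the Sham level over all kept cells was 7.88 per 1000000 per kb for Usp19, an enzyme with a form anchored in the endoplasmic reticulum, 3.53 for Usp2 and 3.26 for Otud4, and 2.02 for Usp34. By this measure Usp15 was at 1.92, Usp4 at 1.42, Otud1 at 1.01 and Usp11 at 0.494. Across the 55 members, Spearman's rho between the Sham level and the gene span was 0.53, and between the level per kb and the span it was -0.11. Members are not independent replicates, and both values are descriptions. The level per kb has the span as its divisor, so the lower second value is partly built in. It does not show that the division is a fitting correction for length. Otud1 spans 2.83 kb and Usp15 91.99 kb.

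**Figure D1:**
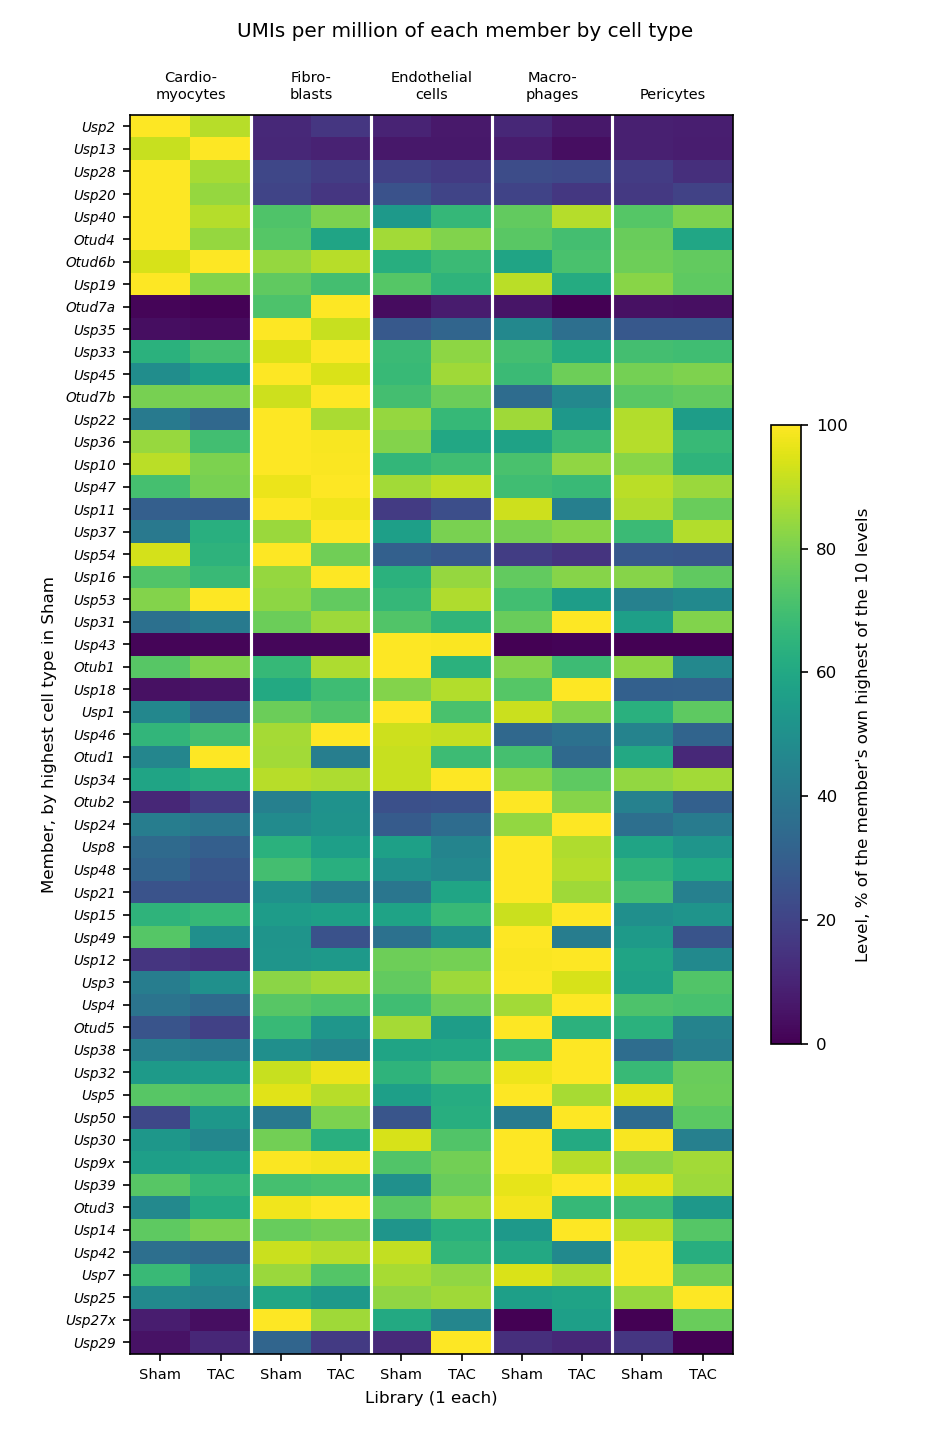
Level of each of the 55 members in the 5 main cell types, Sham and TAC side by side, as a percentage of the member's own highest of its 10 levels (colour). Rows are ordered by the cell type with the highest Sham level, with Usp27x and Usp29, which had under 50 UMIs, at the bottom. The block of cardiomyocyte-high members (Usp2, Usp13, Usp28, Usp20) and the single bright cell types of Usp43 and Otud7a stand out from the many members with broad levels.

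Otud1, an OTU enzyme known from innate immune signalling, had few UMIs in each main type. Its position in GRCm38 is chr2:19657752-19660583 on the plus strand. In Sham it had 26 UMIs in cardiomyocytes, 21 in fibroblasts, 10 in endothelial cells, 7 in macrophages and 5 in pericytes. These gave levels of 2.07 per 1000000 (1.35 to 3.04) in cardiomyocytes, 3.87 (2.40 to 5.92) in fibroblasts, 4.11 (1.97 to 7.57) in endothelial cells, 3.17 (1.27 to 6.53) in macrophages and 2.71 (0.881 to 6.33) in pericytes. All 5 intervals overlapped, so an order of the Sham cell types was not detectable at this depth.

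In TAC, Otud1 had 59 UMIs in cardiomyocytes, 10 in fibroblasts, 10 in endothelial cells, 4 in macrophages and 1 in pericytes. The TAC levels were 4.50 per 1000000 (3.42 to 5.80) in cardiomyocytes, 1.93 (0.925 to 3.55) in fibroblasts, 3.09 (1.48 to 5.69) in endothelial cells, 1.53 (0.417 to 3.92) in macrophages and 0.520 (0.0132 to 2.90) in pericytes. The cardiomyocyte level was the highest in TAC, with an interval that overlapped those of fibroblasts, endothelial cells and macrophages. With the cell type taken from the markers of the single cell, the order turned, with 2.24 in cardiomyocytes and 3.58 in endothelial cells. Without the highest cell of each type the levels were 2.97 and 2.78. The macrophage values rested on 11 UMIs over both libraries, and the TAC to Sham ratio there was 0.483 with an interval from 0.104 to 1.90, so neither a 1.5-fold rise nor a 1.5-fold fall was detectable.

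The cardiomyocyte ratio of Otud1 was 2.17 (1.35 to 3.59). Its UMIs were spread unevenly over single TAC cardiomyocytes: 33 cells had 1, 3 cells had 2 and 1 cell had 20. In Sham, 22 cardiomyocytes had 1 UMI and 2 had 2. Without the highest cell of each library the TAC level was 2.97 per 1000000 and the ratio 1.55 (0.911 to 2.70), with an interval that included 1. With the cell type taken from the markers of the single cell instead of its cluster, 754 TAC cardiomyocytes, among them the cell with 20 UMIs, were left without the name. These cells held 40 of the 59 UMIs, and the ratio over all cells named cardiomyocytes in this way was 0.724, on 23 Sham and 19 TAC UMIs.

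Among the smaller cell types, lymphatic endothelial cells had the most Otud1 UMIs. They had 3 in Sham (16.4 per 1000000, 3.38 to 48.0) and 5 in TAC (19.6, 6.35 to 45.7). The TAC level there lay above that of the other endothelial cells without overlap of the intervals, and the Sham intervals overlapped. T cells, B cells and smooth muscle cells had 0 Otud1 UMIs in both libraries. The exact upper limits were 72.0 and 49.3 per 1000000 in Sham and TAC T cells, far above the levels in the main types, so a level like theirs could not have been seen.

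Usp15, which acts on TGF-beta signalling and on immune signalling proteins, was abundant and highest in macrophages of both libraries among the main types. Its position is chr10:123105006-123196995 on the minus strand. Sham macrophages had 564 Usp15 UMIs, a level of 255 per 1000000 (235 to 277), and TAC macrophages 726 UMIs, a level of 278 (258 to 299). Cardiomyocytes had 181 (173 to 188) in Sham and 186 (179 to 194) in TAC. Endothelial cells had 161 (145 to 178) and 187 (173 to 203), fibroblasts 153 (143 to 164) and 158 (148 to 169), and pericytes 138 (122 to 156) and 144 (128 to 162). The macrophage interval stood clear of the other 4 types in both libraries. Cardiomyocytes and endothelial cells overlapped in both libraries, and so did fibroblasts and pericytes.

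The TAC to Sham ratios of Usp15 were 1.03 (0.972 to 1.09) in cardiomyocytes, 1.03 (0.938 to 1.14) in fibroblasts, 1.16 (1.02 to 1.33) in endothelial cells, 1.09 (0.973 to 1.22) in macrophages and 1.04 (0.875 to 1.24) in pericytes. The 5 ratios were above 1 and none of the 5 intervals reached 1.5. T cells had 14 Usp15 UMIs in Sham (273 per 1000000, 149 to 458) and 33 in TAC (441, 304 to 620). The TAC T cell interval lay above that of TAC macrophages.

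The paralogs Usp4 and Usp11 share the domain order of Usp15. Like Usp15, Usp4 was highest in macrophages, with 96.9 per 1000000 (84.3 to 111) in Sham and 112 (99.96 to 126) in TAC. Unlike Usp15, Usp4 was lowest in cardiomyocytes, with 43.5 (39.9 to 47.3) in Sham and 38.7 (35.4 to 42.2) in TAC. Usp11 was at 14.2 (11.2 to 17.7) in Sham fibroblasts, 12.5 (7.91 to 18.7) in pericytes and 13.1 (8.79 to 18.9) in macrophages. It was at 2.47 (0.906 to 5.37) in Sham endothelial cells and 4.31 (3.23 to 5.62) in cardiomyocytes, below those 3 types without overlap. No Usp4 or Usp11 ratio with at least 50 UMIs passed 1.5-fold in either direction.

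**Figure D2:**
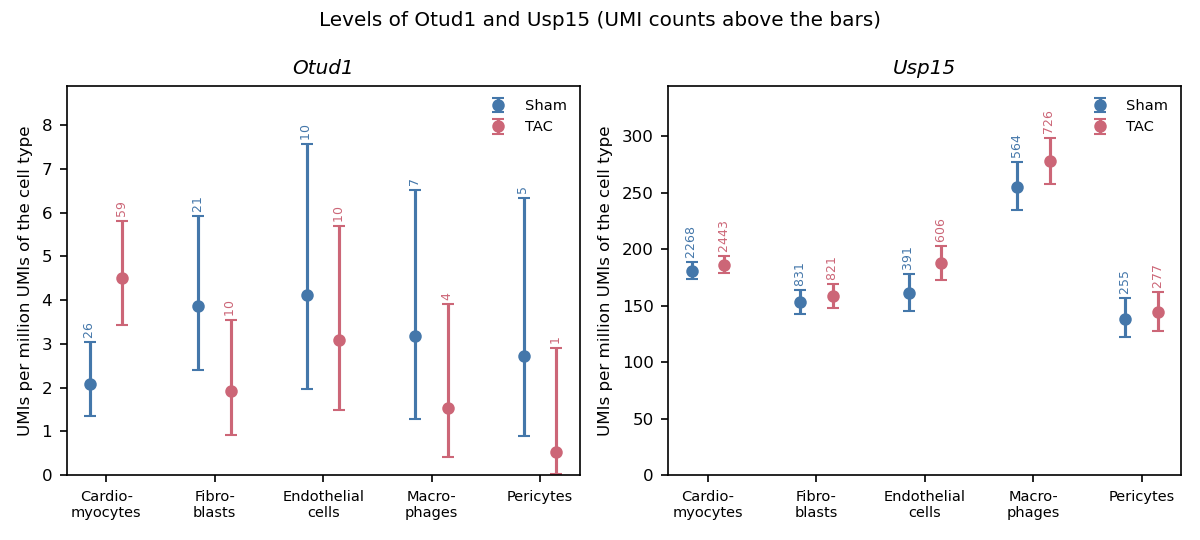
Levels of Otud1 (left) and Usp15 (right) in the 5 main cell types of the Sham and TAC libraries, in UMIs per 1000000 UMIs of the cell type. Points are the levels, bars the exact 95% counting intervals and numbers over them the UMIs. Otud1 has 1 to 59 UMIs per type and wide intervals that largely overlap, and Usp15 is highest in macrophages, at 255 in Sham and 278 in TAC.

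Of the 53 members with at least 50 UMIs in the main types of a library, 8 in Sham (15.1%) had a highest type at 2 times or more the level of the next. For all genes this share was 30.6% in Sham and 30.2% in TAC, and 7 members (13.2%) passed in TAC. The members were thus less often concentrated in 1 cell type than the 15024 Sham and 15734 TAC genes counted in the same way; the difference in share was not tested. In Sham 19 of the 53 members were highest in macrophages, 15 in fibroblasts, 8 in cardiomyocytes, 7 in endothelial cells and 4 in pericytes. Of all genes, 27.5% were highest in macrophages, 21.2% in fibroblasts, 20.2% in cardiomyocytes, 17.2% in endothelial cells and 13.8% in pericytes. The lowest type was the cardiomyocyte for 27 of 53 members (50.9%) in Sham, beside 46.0% of all genes. The highest type was the same in both libraries for 37 of 53 members (69.8%), beside 74.8% of all genes counted in both.

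Usp13, Usp2, Usp28 and Usp20 formed the group concentrated in cardiomyocytes. Usp13, which is known from autophagy, had 3557 UMIs in Sham cardiomyocytes, a level of 284 per 1000000 (274 to 293), and 4061 in TAC, a level of 309.6 (300.2 to 319). Its next highest type, fibroblasts, had 34.3 (29.5 to 39.6) and 29.9 (25.4 to 35.0). Usp2, a clock-controlled enzyme, was at 176 (169 to 184) in Sham and 157 (150.4 to 164) in TAC cardiomyocytes, against 20.1 (16.5 to 24.2) and 27.8 (23.4 to 32.7) in fibroblasts. Usp28, which stabilises MYC, was at 218 (210.4 to 227) and 189.9 (183 to 198), with 51.2 (42.2 to 61.5) and 48.2 (40.1 to 57.4) in macrophages as the next type. Usp20, which with Usp33 controls recycling of the beta-2 adrenergic receptor, was at 119 (113 to 125) and 100.2 (94.8 to 106), with 30.03 (23.5 to 37.8) and 24.4 (19.3 to 30.4) in endothelial cells. The cardiomyocyte intervals of these 4 members stood far above those of the other main types. Usp33 itself was broad, from 95.4 per 1000000 in Sham cardiomyocytes to 141 in fibroblasts. The whole span of Usp2 lies under the opposite-strand model Gm49380 in GENCODE M21, and the strand setting of the counting is not given in the sources used here.

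Between the cardiomyocyte clusters of Sham, Usp13 and Usp28 varied little, and Usp20 differed beyond counting error. In Sham, Usp13 was at 278 per 1000000 in the cluster led by Ptgds and at 286 in the cluster led by Pdzrn4 and Kcnd2. Usp28 was at 222 and 217 in the same clusters, and their intervals overlapped. Usp2 was at 193 (178 to 209) and 170.1 (162 to 179), and Usp20 at 139 (127 to 153) and 112 (105 to 119), higher in the Ptgds cluster, without overlap for Usp20. In the TAC clusters led by Ankrd1 and by Pdzrn4, Usp13 was at 307 and 314 and Usp28 at 191 and 188. Usp2 was at 157 and 158 there, and Usp20 at 100.2 in both.

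Droplet libraries carry free RNA, so the level of these 4 members outside cardiomyocytes was set beside the 8 cardiomyocyte markers. In Sham fibroblasts the markers stood at 2.01% to 13.6% of their cardiomyocyte level, with a median of 4.53%. Usp13 was at 12.1% (10.4 to 14.01) and Usp2 at 11.4% (9.32 to 13.8), inside that range. Usp28 was at 21.3% (18.6 to 24.2) and Usp20 at 20.6% (17.1 to 24.6), above it. In Sham endothelial cells, where the markers ran from 3.79% to 28.6%, the 4 members lay within the range. In Sham macrophages the markers ran from 2.81% to 19.7%, Usp13 and Usp2 lay within, and Usp28 at 23.4% and Usp20 at 20.2% lay above the top with intervals that reached into it. In TAC the intervals lay above the range for Usp28 in macrophages, at 25.4% (21.05 to 30.4) against a top of 16.02%, and in fibroblasts, at 20.7% (17.9 to 23.9) against 13.2%. The same held for Usp20 in TAC fibroblasts, at 18.9% (15.2 to 23.2), and pericytes, at 23.4% (16.96 to 31.4) against 15.7%. In Sham, the shares of Usp13 and Usp2 were thus not higher than that of the marker with the highest share, Myl2, in any of the 4 types. In TAC fibroblasts Usp2 was at 17.7% (14.8 to 20.9), above the 13.2% of Myl2. The part of free RNA in these levels was not tested.

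Usp43 was the member with the sharpest pattern. Endothelial cells held 109 of its 120 UMIs in the Sham main types and 144 of 157 in TAC. The endothelial level was 44.8 per 1000000 (36.8 to 54.1) in Sham and 44.5 (37.6 to 52.4) in TAC. The next type, fibroblasts, was at 0.737 (0.201 to 1.89) and 0.771 (0.210 to 1.97) on 4 UMIs each. Pericytes had 0 UMIs in both libraries, which allows up to 1.63 per 1000000 in Sham and 1.56 in TAC at a limit of 3 counts. The endothelial levels of the libraries did not differ beyond counting error, with a ratio of 0.993 (0.769 to 1.29).

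Usp43 also differed among endothelial clusters. The largest cluster, with Kdr and Ablim3 among its top genes, had 64.6 per 1000000 (52.1 to 79.1) in Sham and 73.6 (61.0 to 88.01) in TAC. The cluster with Lhx6 and Vegfc among its top genes had 23.1 (12.9 to 38.1) and 21.8 (12.5 to 35.5). A cluster with Sox17 and Sema3g, seen in TAC, had 37.5 (16.2 to 73.8). The cluster with Npr3 and Nrg1 had 1 UMI in Sham (2.93, 0.0743 to 16.3) and 0 in TAC (upper limit 5.61). Lymphatic endothelial cells had 1 UMI in Sham and 0 in TAC. The Kdr cluster lay above the Lhx6 cluster in both libraries without overlap, and in TAC it overlapped the Sox17 cluster. The clusters were built from variable genes of the same cells with the members left out, and these differences are a description. Other members took a different order in the same clusters: Usp24 had 94.4 per 1000000 (79.2 to 112) in the Sham Kdr cluster and 217 (170.5 to 273) in the Npr3 cluster, and Usp54 had 46.5 (36.0 to 59.1) and 93.9 (64.2 to 133). In TAC, Usp24 was at 109 (93.2 to 126) and 224 (189 to 263) and Usp54 at 28.2 (20.7 to 37.6) and 88.2 (67.0 to 114) in these clusters.

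Otud7a and Usp35 were concentrated in fibroblasts. Otud7a had 96 fibroblast UMIs in Sham, a level of 17.7 per 1000000 (14.3 to 21.6), and 127 in TAC, a level of 24.5 (20.4 to 29.1). No other main type had more than 6 UMIs in either library. In the fibroblast clusters of TAC the level ran from 0 of 90 cells in the cluster led by Nkain2 (upper limit 16.0 per 1000000) to 32.3 (18.1 to 53.3) in the cluster led by Cilp and including Postn. Usp35 was at 39.6 (34.5 to 45.3) in Sham and 36.2 (31.3 to 41.8) in TAC fibroblasts, with macrophages next at 18.6 (13.3 to 25.2) and 14.5 (10.3 to 19.9) and cardiomyocytes at 1.44 (0.851 to 2.27) and 1.14 (0.640 to 1.89). Usp54 was shared by fibroblasts, with 160.5 (150.01 to 172) in Sham, and cardiomyocytes, with 149.9 (143 to 157), while the other 3 main types had 29.4 to 49.4.

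Of the members highest in macrophages, Otub2 and Usp24 had the largest ratios to the next type in Sham, and Usp24 and Usp38 in TAC. Otub2 was at 13.6 per 1000000 (9.16 to 19.4) in Sham macrophages on 30 UMIs and at 5.97 (2.98 to 10.7) in pericytes. In TAC it was at 11.1 (7.43 to 15.9) in macrophages and 6.94 (4.86 to 9.61) in fibroblasts, and the intervals overlapped in both libraries. Usp24 was at 334 (310.5 to 359) in Sham and 399 (375 to 424) in TAC macrophages, with fibroblasts next at 192 (180.3 to 204) and 205 (193 to 218). Usp48 (216 in Sham and 191 in TAC), Usp8 (194 and 171), an enzyme of endosomal receptor sorting, and Usp12 (122 and 123), which works with WDR48, were also highest in macrophages among the main types. Usp12 was lowest in cardiomyocytes, at 19.1 (16.8 to 21.7) and 16.5 (14.4 to 18.9). Usp46, the close relative of Usp12, had another order: it was lowest in Sham macrophages, at 32.1 (25.1 to 40.5), and highest in endothelial cells, at 88.5 (77.03 to 101), and fibroblasts, at 82.7 (75.3 to 90.8), whose intervals overlapped.

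By ratio to the next type, Otub1 and Usp43 led the members highest in endothelial cells in Sham, and Usp14 and Usp42 those highest in pericytes, though Otub1, Usp14 and Usp42 stayed under 2 times the next type. Otub1 was at 18.9 per 1000000 in Sham endothelial cells, Usp14 at 65.1 and Usp42 at 33.1 in Sham pericytes. In TAC the highest type was another for these 3 members: fibroblasts for Otub1 (16.6) and Usp42 (29.5), and macrophages for Usp14 (72.7).

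Usp18, the interferon-induced protease that removes ISG15, was at 23.0 per 1000000 (17.4 to 29.9) in Sham endothelial cells, 20.8 (15.2 to 27.8) in macrophages, 17.1 (13.8 to 20.99) in fibroblasts, 8.68 (4.96 to 14.1) in pericytes and 1.28 (0.729 to 2.07) in cardiomyocytes. The first 3 types overlapped, and cardiomyocytes lay below the other 4. Usp25, a regulator of innate immune signalling, was highest in Sham pericytes (227, 206 to 249.7) and endothelial cells (223, 205 to 243), which did not differ beyond counting error. Lymphatic endothelial cells reached 536 (435 to 653) in Sham and 286 (224 to 359) in TAC for Usp25, on 98 and 73 UMIs, without overlap.

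**Figure D3:**
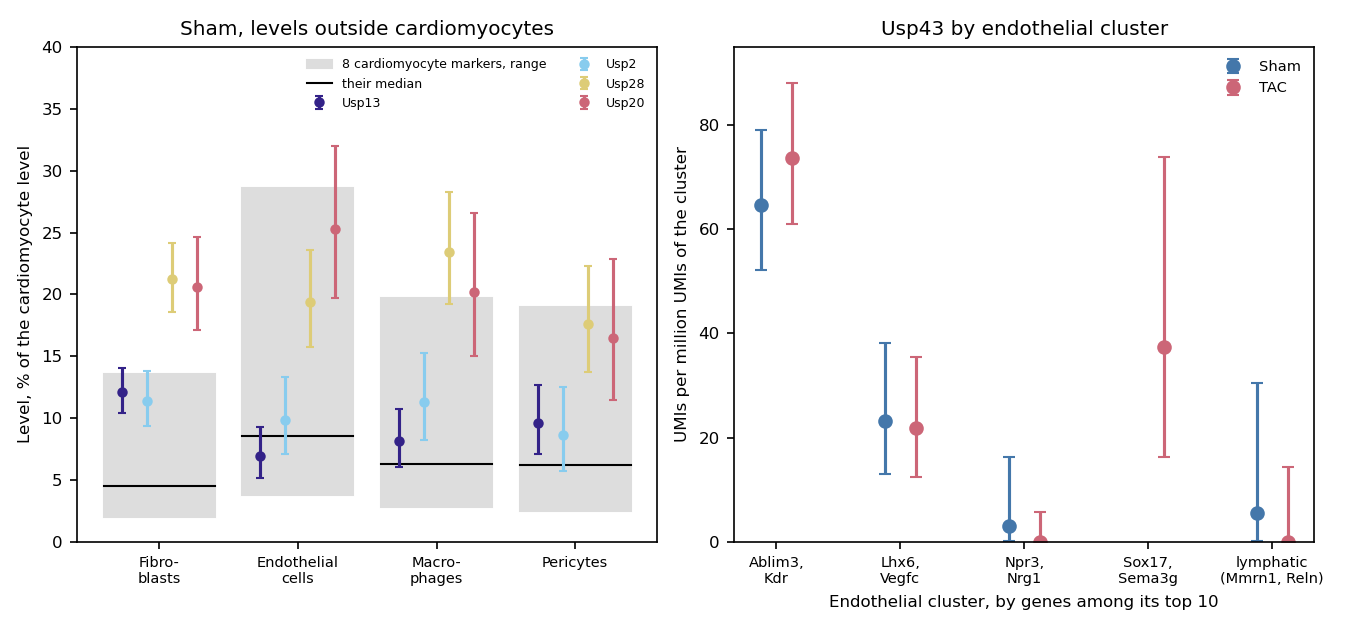
Left, Sham levels of the 4 cardiomyocyte-high members in the other main types as a percentage of their cardiomyocyte level, with 95% counting intervals, over the range (grey) and median (line) of 8 cardiomyocyte markers; Usp13 and Usp2 lie inside the range in the 4 types, and Usp28 and Usp20 above it in fibroblasts. Right, level of Usp43 in each endothelial cluster in UMIs per 1000000 UMIs of the cluster with 95% counting intervals, from 64.6 in Sham and 73.6 in TAC in the Kdr cluster to 0 in the TAC Npr3 and lymphatic clusters.

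The comparison of TAC with Sham was made within each main type for genes with at least 50 UMIs over both libraries, and a ratio was called past 1.5-fold in either direction. Of 237 member and type pairs with enough UMIs, 12 were called higher and 10 lower, and 15 of the 53 members with a pair had a call. The share of all genes with a call in any type was not computed, so these pooled counts have no background. The shares of all genes are given by type below. For 17 of the 22 called pairs the interval excluded 1, and 10 kept the call under the 9 other ways of processing, namely Usp50 in the 5 types, Otud5 in endothelial cells and macrophages, Usp14 in macrophages, and Usp37 and Otub2 in cardiomyocytes. The other 12 lost it under at least 1 of them. In cardiomyocytes 4 of 49 members were higher (Usp50, Otud1, Otub2 and Usp37) and 0 lower, beside 13% of 13235 genes higher and 6.98% lower. In fibroblasts 1 of 50 was higher (Usp50) and 0 lower, beside 10.5% and 4.33% of 12298 genes. In endothelial cells 3 of 48 were higher (Usp50, Usp39 and Usp21) and 2 lower (Otub1 and Otud5), beside 9.04% and 6.05% of 10087 genes. In macrophages 3 of 48 were higher (Usp50, Usp14 and Usp38) and 5 lower (Usp13, Usp2, Usp30, Usp22 and Otud5), beside 9.18% and 8.71% of 9540 genes. In pericytes 1 of 42 was higher (Usp50) and 3 lower (Usp21, Usp22 and Usp42), beside 7.39% and 6.59% of 8380 genes. The members' shares were near or below those of all genes, and the highest share of lower calls was that in macrophages (10.4%).

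The median ratio of the members was 0.965 in cardiomyocytes, 0.991 in fibroblasts, 1.05 in endothelial cells, 0.941 in macrophages and 0.974 in pericytes. The median over all genes tested was 1.02, 1.01, 1.02, 1.001 and 0.997 in the same order. Of 42 members with enough UMIs in all 5 types, 1 (2.38%) was at least 1.5-fold higher in all 5 and 0 at least 1.5-fold lower, beside 1.43% and 0.383% of 7047 genes. The ratio was above 1 in all 5 types for 5 members (11.9%), namely Usp50, Usp37, Usp15, Otud7b and Usp32, beside 15.1% of genes. It was below 1 in all 5 for 10 members (23.8%), namely Otud5, Otud4, Usp7, Usp8, Usp19, Usp22, Usp28, Usp42, Usp48 and Usp54, beside 16% of genes.

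**Figure D4:**
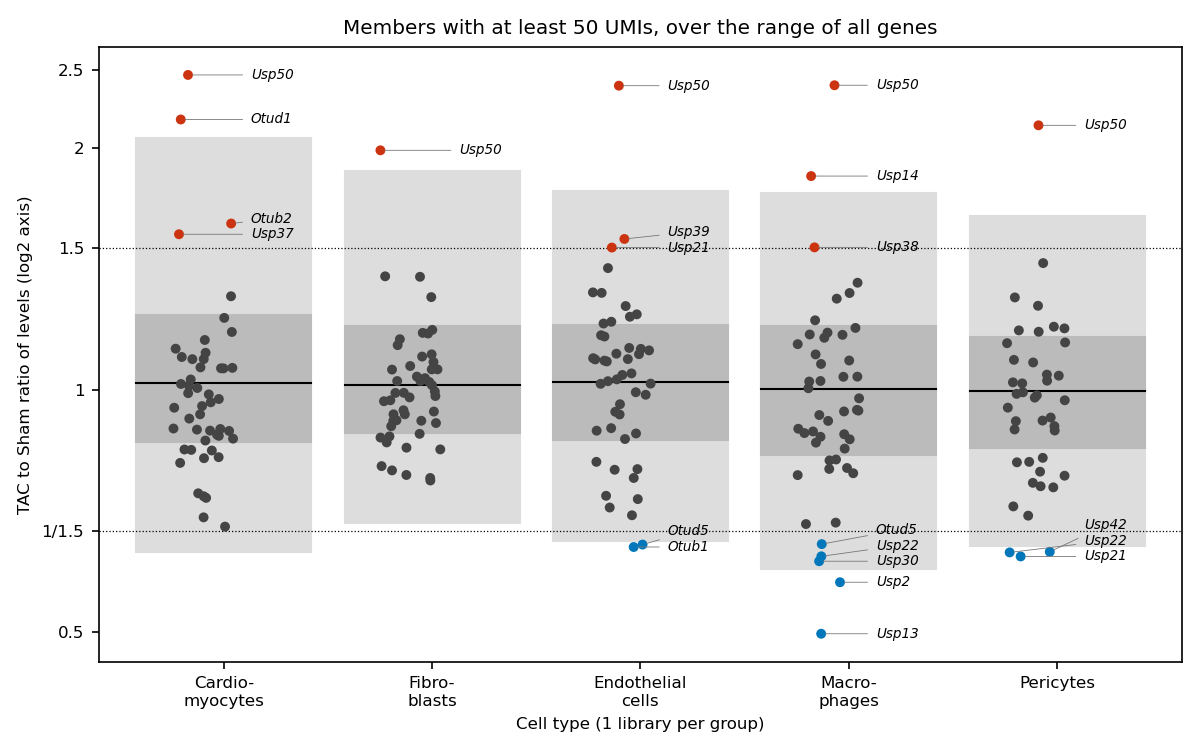
TAC to Sham ratio of levels (log2 axis) of the members with at least 50 UMIs in each main type, over the 5th to 95th percentile (light grey), the quartiles (dark grey) and the median (line) of all genes tested in that type. Named points are past 1.5-fold (dotted lines). Usp50 lies above the 95th percentile in all 5 types, at 1.99 to 2.47.

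Usp50 was the member with the highest ratio in each of the 5 types. Its level was 28.0 per 1000000 in Sham and 69.0 in TAC cardiomyocytes, on 351 and 905 UMIs, a ratio of 2.47 (2.18 to 2.80). In fibroblasts it was 52.5 and 104 (ratio 1.99, 1.72 to 2.30), in endothelial cells 34.1 and 81.6 (2.39, 1.86 to 3.10), in macrophages 54.3 and 130.0 (2.39, 1.94 to 2.97) and in pericytes 45.6 and 97.3 (2.13, 1.64 to 2.79). No cell held more than 6 of its TAC UMIs in any of these types. In the cardiomyocyte clusters it was at 27.2 and 28.3 in Sham and at 71.1 and 65.6 in TAC.

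Usp50, long listed as lacking protease activity, has the position chr2:126709096-126783470 on the minus strand, and Usp8 the position chr2:126707328-126759297 on the plus strand. The genes overlap over 50.2 kb, which is 67.5% of the span of Usp50 and 96.6% of that of Usp8. The levels of the overlapping Usp8 moved the other way, with ratios of 0.876 (0.793 to 0.968) in cardiomyocytes, 0.881 (0.787 to 0.987) in fibroblasts, 0.797 (0.672 to 0.945) in endothelial cells, 0.880 (0.769 to 1.01) in macrophages and 0.890 (0.728 to 1.09) in pericytes. Usp50 itself is annotated as protein-coding. For genes with the annotation class antisense the median ratio was 1.69 over 719 genes in cardiomyocytes, 1.74 over 516 in fibroblasts, 1.93 over 290 in endothelial cells, 1.78 over 252 in macrophages and 1.85 over 214 in pericytes. The median of protein-coding genes lay between 0.987 and 1.01 in the 5 types. Of the 101 genes at least 1.5-fold higher in all 5 types, 57.4% were of the antisense class and 26.7% protein-coding. Whether UMIs of Usp8 transcripts or of the opposite strand were counted for Usp50 was not tested.

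**Figure D5:**
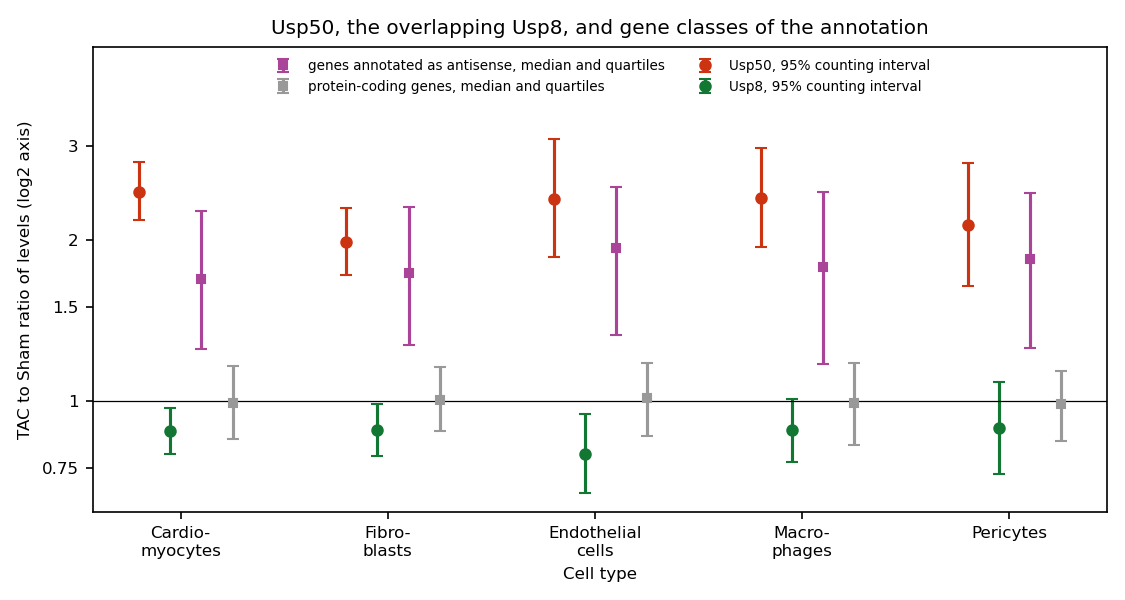
TAC to Sham ratios (log2 axis) of Usp50 and Usp8 with 95% counting intervals in the 5 main cell types, beside the median and quartiles of genes annotated as antisense and of protein-coding genes. Usp50 is between 1.99 and 2.47, Usp8 between 0.797 and 0.890, and the median of the antisense class between 1.69 and 1.93.

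Among the members of inflammatory and antiviral signalling, Otud5, which removes ubiquitin from TRAF3, was lower in TAC in each main type. Its levels were 140 per 1000000 in Sham and 89.9 in TAC macrophages (ratio 0.642, 0.540 to 0.764) and 121 and 77.6 in endothelial cells (0.642, 0.540 to 0.762). The ratios were 0.697 (0.546 to 0.887) in pericytes, 0.743 (0.645 to 0.855) in cardiomyocytes and 0.777 (0.678 to 0.889) in fibroblasts, which did not pass 1.5-fold but whose intervals excluded 1. Usp38 was at 41.2 and 61.96 in macrophages (1.504, 1.16 to 1.97). Usp21 was at 10.3 and 15.5 in endothelial cells (1.503, 0.912 to 2.54) and at 18.5 and 11.4 in pericytes (0.620, 0.346 to 1.09), with both intervals over 1. Otub1, which also blocks the conjugating enzyme UBC13, was at 18.9 and 12.1 in endothelial cells (0.637, 0.405 to 0.998). Otub2 in cardiomyocytes rested on 19 and 32 UMIs (1.61, 0.885 to 3.01). Usp31 in pericytes (1.44, 1.02 to 2.04) and Otud7a (1.38, 1.05 to 1.82) and Usp2 (1.38, 1.07 to 1.79) in fibroblasts were the next highest there without passing 1.5-fold, and the ratio of Usp2 in fibroblasts was 0.971 when called doublets were kept. Of the 14 members in this group, 12 had enough UMIs in cardiomyocytes, 14 in fibroblasts, 12 in endothelial cells, 13 in macrophages and 9 in pericytes, and their median ratios ran from 0.944 in macrophages to 1.07 in fibroblasts.

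For the chromatin enzymes the median ratio was below 1 in the 5 types. The same held for the organelle enzymes, with medians from 0.783 in macrophages to 0.932 in fibroblasts. The median ratio of the chromatin members tested was 0.878 in cardiomyocytes, 0.970 in fibroblasts, 0.959 in endothelial cells, 0.930 in macrophages and 0.782 in pericytes, over 5 or 6 members in each type. Usp22, the SAGA complex enzyme for histone H2B, was at 29.0 and 17.98 per 1000000 in macrophages (0.620, 0.416 to 0.918) and at 29.9 and 18.7 in pericytes (0.627, 0.400 to 0.972). Usp42 was at 33.1 and 20.8 in pericytes (0.628, 0.411 to 0.952). Usp7, which stabilises MDM2, was at 99.8 and 73.6 in cardiomyocytes (0.737, 0.677 to 0.802). Usp49, another H2B enzyme, had the lowest cardiomyocyte ratio of any member tested, at 7.34 and 4.96 (0.676, 0.484 to 0.938). None of the cardiomyocyte ratios in this group passed 1.5-fold. Usp3 and Usp16, which act on histone H2A, went the other way in some types. Usp3 was 1.18 (1.09 to 1.28) in cardiomyocytes and 1.27 (1.06 to 1.52) in pericytes, and Usp16 was 1.32 (1.07 to 1.64) in endothelial cells and 1.19 (1.04 to 1.36) in fibroblasts.

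Of the genome maintenance and cell cycle members, Usp37, which acts on cyclin A and replication proteins, was called in cardiomyocytes, at 41.3 and 64.5 per 1000000 on 518 and 846 UMIs (1.56, 1.40 to 1.75). Its ratio was 1.42 (1.15 to 1.75) in endothelial cells, 1.30 (1.03 to 1.65) in pericytes, 1.17 (1.04 to 1.33) in fibroblasts and 1.04 (0.848 to 1.27) in macrophages. Usp1, which removes ubiquitin from FANCD2 and PCNA, was among the lowest in cardiomyocytes, at 15.1 and 11.1 (0.734, 0.587 to 0.916). The other tested members of the group stayed within 1.5-fold in the 5 types.

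Of the enzymes for the proteasome and free chains, Usp14, which binds the proteasome, was at 39.4 per 1000000 in Sham and 72.7 in TAC macrophages on 87 and 190 UMIs (1.84, 1.42 to 2.41). It stayed between 0.823 and 1.21 in the other types. Usp13 and Usp2 were lower in TAC macrophages: Usp13 was at 23.1 and 11.5 (0.497, 0.306 to 0.795) and Usp2 at 19.9 and 11.5 (0.576, 0.350 to 0.937). With called doublets kept, the ratio of Usp13 was 0.919 and no longer past 1.5-fold. The summed level of the 8 cardiomyocyte markers in macrophages fell in the same direction, from 3764 to 2265 per 1000000 (ratio 0.602), with 8 of 8 markers below 1 (0.444 to 0.902) and 0 markers at 0 UMIs. The same sum also had ratios of 0.778 in cardiomyocytes, 0.723 in fibroblasts, 0.659 in endothelial cells and 0.722 in pericytes. The part of free cardiomyocyte RNA in the macrophage ratios of Usp13 and Usp2 was not tested. In cardiomyocytes themselves, Usp13 was 1.09 (1.04 to 1.14) and Usp2 0.892 (0.840 to 0.948).

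The endosome and trafficking enzymes had no called ratio. Usp20 had the lowest ratio in fibroblasts, 0.771 (0.588 to 1.01), and 0.843 (0.782 to 0.908) in cardiomyocytes. Of the organelle enzymes, Usp30 of the mitochondrial outer membrane was called lower in macrophages on 29 and 21 UMIs (0.612, 0.332 to 1.11), with an interval over 1. Usp19 was at 103 and 83.4 per 1000000 in cardiomyocytes (0.811, 0.747 to 0.880) and at 92.4 and 63.1 in macrophages (0.683, 0.553 to 0.843), just short of the 1.5-fold limit. The large enzymes Usp9x, Usp24, Usp34 and Usp47 stayed between 0.894 and 1.23 in the 5 types. Usp24 had the largest of these ratios in endothelial cells, 1.23 (1.06 to 1.44), and 1.19 (1.09 to 1.31) in macrophages.

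Of the members long listed as lacking full catalytic residues, Usp54 was lower in cardiomyocytes, at 149.9 and 104.0 per 1000000 (0.694, 0.646 to 0.744), and in fibroblasts, at 160.5 and 126 (0.783, 0.707 to 0.868). Neither passed 1.5-fold. Usp39, a spliceosome component, rested on 20 and 41 UMIs in endothelial cells (1.54, 0.882 to 2.78). Usp53 was at 39.2 and 48.1 in cardiomyocytes (1.23, 1.09 to 1.39).

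The other deubiquitinases, cofactors, ubiquitin genes and genes of the CARD9 pathway were described as a list of 44 genes. Its lower calls in macrophages and pericytes include Bcl10, which is described with the CARD9 pathway below. In cardiomyocytes 2 of 39 tested were higher and 3 lower, in fibroblasts 2 and 0 of 41, in endothelial cells 1 and 1 of 39, in macrophages 1 and 4 of 39 and in pericytes 1 and 2 of 35. The shares of all genes called higher and lower were 13% and 6.98% in cardiomyocytes, 10.5% and 4.33% in fibroblasts, 9.04% and 6.05% in endothelial cells, 9.18% and 8.71% in macrophages, and 7.39% and 6.59% in pericytes. The median ratios of the list ran from 0.968 in macrophages to 1.04 in fibroblasts. Otulin, which removes linear ubiquitin chains, had the largest ratio among the other OTU enzymes in cardiomyocytes, at 152 and 219 per 1000000 (1.44, 1.36 to 1.53), and lay between 0.947 and 1.06 in the other types. Tnfaip3, which encodes the NF-kappaB inhibitor A20, was at 20.4 and 13 in macrophages (0.638, 0.396 to 1.02). Bap1, a histone H2A deubiquitinase, was at 19.7 and 11.4 in endothelial cells (0.579, 0.367 to 0.908).

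In the CARD9 pathway, Card9 had 82 and 94 UMIs in macrophages, with a ratio of 0.968 (0.712 to 1.32) that stayed within 1.5-fold. Its partner Bcl10 was lower in macrophages, at 83.8 and 49.0 per 1000000 (0.584, 0.463 to 0.736), and in pericytes (0.532, 0.313 to 0.887). Malt1 stayed between 0.893 and 1.17 in the 5 types.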

How the data were processed

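Single-cell suspensions were captured with the 10x Genomics 3-prime chemistry, V3 per the labels and v2 per the study's methods. The deposited values are raw UMI counts per gene and barcode, made by the authors with Cell Ranger (7.1.0 in the labels and file headers; the methods name another version). Genome build, intron counting, barcode filtering and use of strand are not given in the sources used here. Barcodes with at least 200 genes were kept, doublets were called per library with Scrublet in Scanpy 1.11.5, and each library was clustered by itself (2000 variable genes, 30 components, 15 neighbours, Leiden 0.10.2 at resolution 1). A cluster was named from at least 3 raised markers. UMIs were summed per type and library, and levels, ratios and exact 95% intervals were computed with SciPy 1.17.1. The ratio script was tested on simulated data. Ratios used genes with at least 50 UMIs, and calls 1.5-fold. Gene positions came from GENCODE M21 (GRCm38), matched by gene ID, which held 94.1% of the gene IDs. The members, marker and gene lists were chosen with earlier results of these data known. Named genes were Otud1, Usp15, the 8 highest members, the 2 most concentrated per type and the 3 highest and 3 lowest ratios per type; other genes named for a contrast were chosen after their values were seen. Alternatives covered cell filters, doublets, resolution, joint clustering, typing by single-cell markers, scaling, UMI minimums and the fold. Protein sequences were not analysed here. The pooled libraries gave 1 replicate per group, so p-values were not computed. Some items are not reported here.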

Additional observations from a re-analysis of the deposited data

Results flagged for a closer look

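Usp21 was called past 1.5-fold in opposite directions in 2 cell types, with a TAC to Sham ratio of 1.503 in endothelial cells and 0.620 in pericytes. The difference between the types was not tested, and both intervals included 1. The 221 unnamed Sham cells, which entered no comparison in the main settings, also held member UMIs: the members together were at 3779 per 1000000 there, within the 3681 to 4286 of the Sham main types. Of these cells, 171 formed a cluster with under 3 raised markers. Its top genes included Pdzrn4, Fgf14 and Rgs6, as did those of a TAC cluster of 769 cells named cardiomyocytes. At resolution 0.5, 2528 Sham cells were named cardiomyocytes, against 2355 in the main settings.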

How the results depend on the processing

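No paired analysis was possible because each group has 1 library. Of 405 ratios of members recomputed under 9 alternatives, 401 lay within the 95% counting interval of the reported ratio, 3 moved out of it and 1 that had been past 1.5-fold changed direction. The ones that moved were Usp13 in macrophages (0.919) and Usp2 in fibroblasts (0.971, from above to below 1, not past 1.5-fold in either case) with called doublets kept, and Usp37 in cardiomyocytes (1.76) with cells typed one by one from their markers. The call that changed direction was Otud1 in cardiomyocytes in that same typing, at 0.724. With that typing the Otud1 cardiomyocyte level was 3.09 per 1000000 in Sham and 2.24 in TAC. Without the cell holding most of its UMIs, Otud1 was at 2.97 in TAC cardiomyocytes and at 0 in TAC pericytes. The other 176 of 180 recomputed levels of Otud1 and Usp15 stayed within their intervals. Of the 22 calls past 1.5-fold, 10 were kept under the 9 alternatives and 12 were lost under at least 1; Usp21 in endothelial cells kept its call in 3 of 9. The ratios of Usp50 stayed between 1.99 and 2.53 in the 5 types. The 12 higher calls became 5 at a 2-fold limit, and 7 without the 4 members that have at least 50% of their span under an opposite-strand gene (an alternative chosen after seeing the data). The 10 lower calls became 1 at 2-fold, 16 with at least 20 UMIs, 2 with at least 200 UMIs and 6 with cells typed by their own markers. The shares of all genes given above hold for the main settings, 1.5-fold and at least 50 UMIs. These changed counts are therefore not set beside all genes and do not show whether the moves are particular to the members. Of the 5 members above 1 in all 5 types, 3 were counted when ratios were divided by the median of all genes. Depth limits members such as Otud1, whose levels outside cardiomyocytes rest on 1 to 21 UMIs.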
